A study of Mus musculus with 10 samples.

Results

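Cholangiocytes, the epithelial cells that line the bile ducts, are known by a small set of genes, and 9 of these were followed here through RNA of mouse liver endothelial preparations: Epcam, Cldn7, Tspan8, Krt8, Krt18, Krt7, Krt19, Sox9 and Spp1. The 9 genes were found among the 55385 listed genes by matching their Ensembl identifiers to symbols, and all 9 passed the filter on low counts, as did 15043 genes in all. In the series, livers of mice with a targeted Acvrl1 gene, which encodes the BMP9 and BMP10 receptor ALK1, were compared with livers of control mice labelled wild type. Non-parenchymal cells were separated on a density gradient, endothelial cells were captured with beads against CD146, the product of Mcam, and their RNA was sequenced in 5 libraries labelled Alk1-HEC-KO and 5 labelled Control. Not given in the sources used here are the promoter that drove the deletion, the deleted exons, the age and sex of the mice, and whether each library came from its own mouse, so each p-value reflects only how much these samples varied, and that variation may be technical.

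Bile ducts run in the portal tracts beside branches of the portal vein and hepatic artery. Their cells are joined by claudins and E-cadherin, carry the adhesion molecule EpCAM, and hold paired keratins, of which keratins 8 and 18 are shared with hepatocytes while keratins 7 and 19 are typical of ducts. SOX9 is a transcription factor of duct development, and osteopontin, the secreted product of Spp1, is abundant in ducts and is also made by some macrophages. None of these genes is a usual marker of endothelium.

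Of the bile duct genes 8 were higher in the libraries labelled Alk1-HEC-KO, by 1.79-fold to 2.2-fold, and the remaining one, Krt7, did not pass the test. The genes that rose were Epcam, Spp1, Tspan8, Sox9, Cldn7, Krt8, Krt18 and Krt19. In all, 8 of 9 members were called higher and 0 lower, with a median log2 fold change of 0.96, against a median of 0 over all tested genes. Among all 15043 genes tested by edgeR's quasi-likelihood test, 10.6% were called higher at an adjusted p under 0.05 (Benjamini-Hochberg), 9.08% lower and 19.7% in either direction. Of the 2959 called genes 53.8% were higher, a share of 65.8% with library size alone as the scaling and 72.9% with limma on log2(TPM + 1), and the 8 members were called under each of these.

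The libraries themselves were nearly equal in depth, with 23489494 to 23602771 estimated counts. The targeted gene went against its label: in controls 1 to 5 Acvrl1 stood at 124.5, 125, 136, 114 and 135 CPM (rounded counts per 1000000 counts of the TMM-scaled library), and in the knockout-labelled libraries, numbered alike, at 239, 246, 250, 258 and 245 CPM. It was 1.95-fold higher in the latter (edgeR adjusted p = 1.7e-07), and a count per gene cannot tell one exon from another. The group is therefore called the library or libraries labelled Alk1-HEC-KO, and every direction below is theirs against the controls. Of 12 endothelial markers all 12 were tested, and Pecam1 stood at 731 and 919 TPM (the deposited unit scaled by transcript length) in the means of the control and the Alk1-HEC-KO libraries. The summed level of hepatocyte markers ran from 624 to 2179 CPM in controls, with controls 2 and 4 the highest. Mitochondrially encoded transcripts made up 4.27 to 6.43% of control counts and 3.45 to 4.32% in the libraries labelled Alk1-HEC-KO.

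Bile duct transcripts were a small part of these libraries. The 9 genes together held 0.0214 to 0.0307% of the counts in controls and 0.0421 to 0.0707% in the libraries labelled Alk1-HEC-KO, and without Spp1 they held 0.0051 to 0.0078% and 0.009 to 0.0147%. In bulk RNA, more cells of a type and more RNA per cell cannot be told apart.

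The start regions of 4 of these genes are printed: those of the adhesion gene Epcam, of the secreted ligand Spp1, and of the keratin partners Krt8 and Krt18. Tspan8 and Cldn7, whose windows are not printed, and Sox9 and Krt19, which had no window, rose by 0.84 to 1.12 on the log2 scale. Each printed region is the RefSeq window of GRCm38.p6 from 250 bases before to 50 bases after a transcript start. It is read 5′ to 3′ on the gene's strand. Capitals mark CACCTG or its reverse complement CAGGTG, the core of E-boxes bound by Snail and ZEB factors. All 4 printed windows hold it, as does the window of Krt7, which did not pass the test. Windows not printed that lack it are those of Tspan8, a further one of Spp1 and one of Cldn7.
Epcam, chr17:87635729-87636028, plus strand: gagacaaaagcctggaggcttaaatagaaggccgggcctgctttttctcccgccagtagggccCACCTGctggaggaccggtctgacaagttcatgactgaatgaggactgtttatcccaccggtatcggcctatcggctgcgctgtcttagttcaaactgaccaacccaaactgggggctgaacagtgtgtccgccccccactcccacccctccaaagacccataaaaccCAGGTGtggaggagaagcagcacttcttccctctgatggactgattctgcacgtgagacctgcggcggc
Spp1, chr5:104434861-104435160, plus strand: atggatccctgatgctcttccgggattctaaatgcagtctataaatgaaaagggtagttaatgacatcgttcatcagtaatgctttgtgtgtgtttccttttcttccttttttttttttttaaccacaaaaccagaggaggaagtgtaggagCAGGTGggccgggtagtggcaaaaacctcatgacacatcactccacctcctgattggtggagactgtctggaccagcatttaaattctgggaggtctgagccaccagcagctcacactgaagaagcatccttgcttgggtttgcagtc
Krt8, chr15:102004293-102004592, minus strand: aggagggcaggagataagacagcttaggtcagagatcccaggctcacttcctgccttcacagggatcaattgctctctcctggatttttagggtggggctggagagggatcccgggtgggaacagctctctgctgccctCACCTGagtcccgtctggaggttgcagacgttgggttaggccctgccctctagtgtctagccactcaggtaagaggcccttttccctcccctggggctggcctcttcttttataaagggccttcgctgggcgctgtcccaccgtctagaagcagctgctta
Krt18, chr15:102027966-102028265, plus strand: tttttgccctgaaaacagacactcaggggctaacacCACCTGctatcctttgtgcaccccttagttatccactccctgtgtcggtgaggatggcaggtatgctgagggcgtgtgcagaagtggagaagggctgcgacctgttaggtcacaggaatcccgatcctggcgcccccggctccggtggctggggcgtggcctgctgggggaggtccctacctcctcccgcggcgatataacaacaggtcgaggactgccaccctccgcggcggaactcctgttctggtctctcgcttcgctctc

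Start windows were found for 7 of the 9 genes, all but Sox9 and Krt19. They numbered 9, since Spp1 and Cldn7 have 2 each. CACCTG, on either strand, stood in 6 of the 9 windows, those of Epcam, Spp1, Cldn7, Krt7, Krt8 and Krt18, and in 20.2% of the 32851 windows of all genes. ACCGGT, the centre of the grainyhead-like motif and its own reverse complement, occurred at 2 places in the Epcam window and in 1 of the 9 windows, against 2.33% of all windows. TATAAA stood in the Spp1 and Krt8 windows (13.6% of all windows) and GGGCGG, the GC box of SP1, in 3 windows (35.7%). GGAATG, the TEAD motif, was found in 1 window, of Cldn7 (14.7%), and GGCGCC, a GC-rich element bound by BMP-activated SMADs, in 1, of Krt18 (11.9%). AACAAT, a SOX core, was in 0 of the 9 windows and in 10.7% of all windows. Both strands were searched for each motif, no motif of the set contains another, and a match describes letters only.

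Among the genes of the cell surface and its junctions, Epcam (ENSMUSG00000045394.9, chr17:87635979-87651129 on the plus strand, GRCm38), which encodes the epithelial cell adhesion molecule, was at 5.68, 6.57, 6.11, 6.52 and 7.51 CPM in controls 1 to 5. In the libraries labelled Alk1-HEC-KO, numbers 1 to 5, its level was 11.6, 17, 17.6, 10.9 and 14.2 CPM. The groups did not overlap: the lowest library labelled Alk1-HEC-KO, number 4, stood above control 5, the highest control. The means were 6.48 ± 0.68 and 14.3 ± 3.03 CPM (n = 5 per group, ± SD). The latter mean was 2.2-fold higher, with a log2 fold change of 1.14 ± 0.14 (SE; edgeR adjusted p = 1.2e-04).

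Cldn7 (ENSMUSG00000018569.12, chr11:69964779-69967885, plus strand), a tight junction claudin that binds EpCAM, was a weaker transcript. Controls 1 to 5 had 1.93, 1.63, 2.05, 1.8 and 2.95 CPM, from 38 to 69 counts. In the libraries labelled Alk1-HEC-KO it was 3.65, 4.48, 4.95, 3.28 and 3.76 CPM. Control 5 was the highest control and library 4 the lowest of the other group, and the groups did not overlap. The log2 fold change was 0.96 ± 0.19 SE (1.94-fold, edgeR adjusted p = 0.0031).

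Tspan8 (ENSMUSG00000034127.15, chr10:115816832-115849893, plus strand) encodes a tetraspanin of epithelial membranes. Its level was 3.45, 4.42, 4.84, 3.33 and 7.05 CPM in the control libraries, numbers 1 to 5, and 9.02, 13.1, 9.65, 8.41 and 10.1 CPM in those labelled Alk1-HEC-KO. Control 5 lay closest to the other group, without reaching it. The means were 4.62 ± 1.5 and 10.1 ± 1.8 CPM (n = 5 per group, ± SD). The latter mean was 2.18-fold higher, with a log2 fold change of 1.12 ± 0.2 (SE; edgeR adjusted p = 0.0018).

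**Figure D1:**
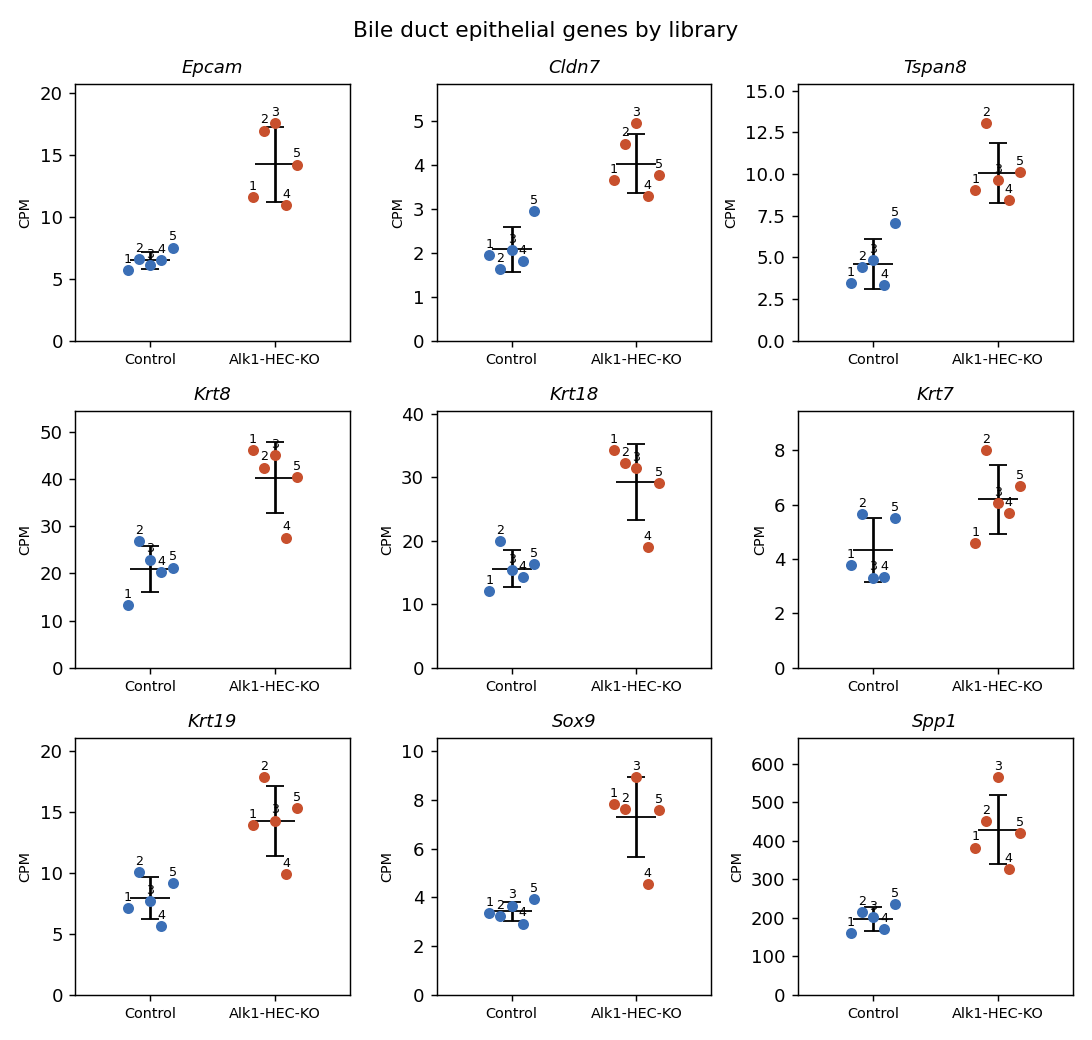
CPM of each of the 9 bile duct genes (vertical axes start at 0) in the 5 Control (blue) and 5 Alk1-HEC-KO (red) libraries, with replicate numbers beside the points, the mean as a horizontal line and bars of 1 SD. Krt7, Krt18 and Krt19 overlap between the groups and the other 6 genes do not, and library 4 is the lowest red point for 8 of the 9.

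The keratins form the intermediate filaments of simple epithelia, with a type II chain (Krt8, Krt7) paired to a type I chain (Krt18, Krt19). Krt8 (ENSMUSG00000049382.10, chr15:101996698-102004482, minus strand) was at 13.3, 26.9, 22.9, 20.3 and 21.2 CPM in the control libraries, numbers 1 to 5, and 46.2, 42.4, 45, 27.6 and 40.4 CPM in those labelled Alk1-HEC-KO. Library 4 labelled Alk1-HEC-KO stood just above control 2, so the groups were apart by a narrow margin. The log2 fold change was 0.95 ± 0.19 SE (1.93-fold, edgeR adjusted p = 0.0054).

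Its partner Krt18 (ENSMUSG00000023043.7, chr15:102028180-102032027, plus strand) followed the same order of libraries at both ends. It was at 12, 19.95, 15.3, 14.2 and 16.4 CPM in the control libraries, numbers 1 to 5, and 34.3, 32.2, 31.4, 19 and 29.1 CPM in those labelled Alk1-HEC-KO. Library 4 fell just below control 2, and the other 4 libraries labelled Alk1-HEC-KO lay above every control. The log2 fold change was 0.91 ± 0.17 SE (1.875-fold, edgeR adjusted p = 0.0031).

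Krt19 (ENSMUSG00000020911.14, chr11:100140810-100148665, minus strand), the keratin most used to mark ducts, was at 7.105, 10.1, 7.72, 5.62 and 9.18 CPM in controls 1 to 5. In the libraries labelled Alk1-HEC-KO it was at 13.9, 17.9, 14.3, 9.88 and 15.3 CPM. Library 4 again fell below control 2, and the other 4 did not. The log2 fold change was 0.84 ± 0.17 SE (1.79-fold, edgeR adjusted p = 0.0049).

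Krt7 (ENSMUSG00000023039.17, chr15:101411043-101430313, plus strand) was the member that did not pass. It was at 3.78, 5.66, 3.31, 3.33 and 5.51 CPM in the control libraries, numbers 1 to 5, and 4.58, 8.01, 6.05, 5.68 and 6.69 CPM in those labelled Alk1-HEC-KO. Controls 2 and 5 lay above library 1 labelled Alk1-HEC-KO. The log2 fold change was 0.52 ± 0.2 SE (1.435-fold, edgeR adjusted p = 0.084), with adjusted p from 0.032 to 0.21 over 21 alternatives. Without control 2 it was called (0.64 on the log2 scale, edgeR adjusted p = 0.049).

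Sox9 (ENSMUSG00000000567.5, chr11:112782224-112787760, plus strand), the transcription factor, was at 3.36, 3.22, 3.66, 2.925 and 3.93 CPM in controls 1 to 5. In the libraries labelled Alk1-HEC-KO it was at 7.81, 7.6, 8.93, 4.54 and 7.57 CPM. The controls lay close together, and library 4 was nearest to them. The log2 fold change was 1.09 ± 0.17 SE (2.13-fold, edgeR adjusted p = 6.5e-04).

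Spp1 (ENSMUSG00000029304.14, chr5:104435118-104441050, plus strand) encodes osteopontin, a secreted ligand of integrins and CD44, and was the most abundant member in TPM. Its level was 161, 215, 203, 171 and 235 CPM in the control libraries, numbers 1 to 5, and 382, 450, 565, 327 and 420 CPM in those labelled Alk1-HEC-KO. All 5 of the latter stood above all controls. The means were 197 ± 30.4 and 429 ± 88.95 CPM (n = 5 per group, ± SD). The latter mean was 2.18-fold higher, with a log2 fold change of 1.12 ± 0.15 (SE; edgeR adjusted p = 4.0e-04).

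In 6 of the 9 genes, all but Krt7, Krt18 and Krt19, every library labelled Alk1-HEC-KO lay above every control, which held for 8.4% of all tested genes. Within the Alk1-HEC-KO group library 4 was the lowest for 8 members and library 1 for Krt7. Library 3 was the highest for 4 members, library 2 for 3 and library 1 for 2. Among the controls the highest was control 5 for 5 members and control 2 for 4. The count of 8 members called higher was the same without controls 2 and 4, the pair with the most hepatocyte transcripts.

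Levels of different genes were compared in the deposited TPM, which is per transcript length. In the controls Spp1 stood at 247 ± 43.6 TPM (SD, n = 5), above all other members. Krt18 (19.1 ± 3.82) and Krt8 (18 ± 4.16 TPM) overlapped, as did Krt8 with Krt19 (10.1 ± 3.25), Krt19 with Tspan8 (6.93 ± 2.37) and Tspan8 with Epcam (6.35 ± 0.82 TPM). Epcam was above Cldn7 (3.41 ± 1.02 TPM) without overlap, and Cldn7, Krt7 (2.34 ± 1.02) and Sox9 (1.33 ± 0.2 TPM) overlapped each with the next. The order of the 9 genes was the same in the libraries labelled Alk1-HEC-KO, from Spp1 at 575 ± 123 TPM to Sox9 at 3.03 ± 0.71 TPM (SD, n = 5).

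**Figure D2:**
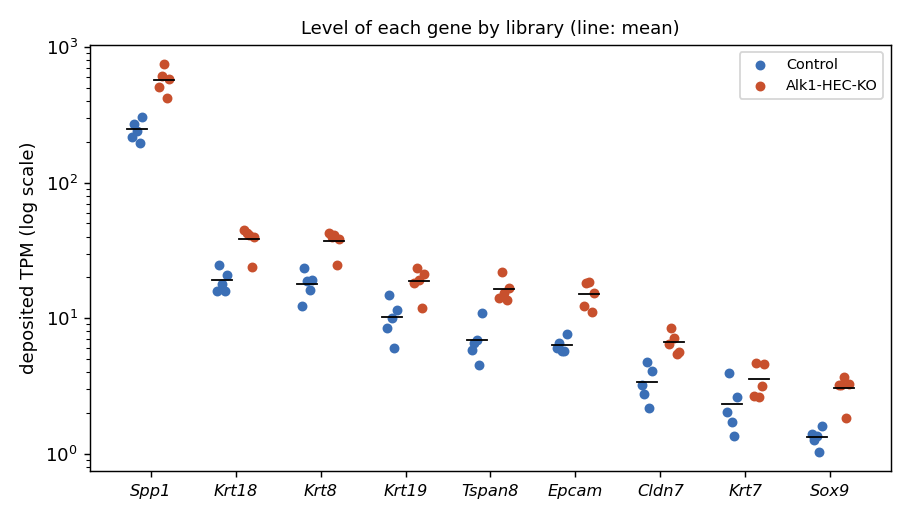
Deposited TPM of the 9 genes (log axis) in the 5 Control (blue) and 5 Alk1-HEC-KO (red) libraries, ordered by the control mean, with the mean of each group as a line. Spp1 lies above all other members in both groups, and Sox9 and Krt7 lie lowest.

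The ratio of each other member to Epcam within a library was examined next, a comparison added after the values were seen. CPM ratios are not per length, so only their change between the groups is read. Epcam had the largest log2 fold change of the members (1.14) and Krt7 the smallest (0.52). A fall of the Krt7 ratio therefore follows from values already given and is no separate result. Spp1 stood at 30.4 ± 2.95 times Epcam in controls and 30.2 ± 2.52 times in the libraries labelled Alk1-HEC-KO (n = 5 per group, ± SD; exact two-sided permutation p = 0.97). For Sox9 the ratios were 0.531 ± 0.065 and 0.515 ± 0.1 (exact permutation p = 0.72), and for Tspan8 0.704 ± 0.166 and 0.716 ± 0.097 (exact permutation p = 0.79). For Krt7 the ratio fell from 0.663 ± 0.144 to 0.44 ± 0.07, a log2 change of -0.58 with an exact permutation p of 0.016, and 0.13 after Benjamini-Hochberg adjustment over the 8 ratios. The other 4 ratios had log2 changes from -0.27 (Krt19) to -0.15 (Cldn7) and adjusted p of 0.55 to 0.66 by the same exact permutation test. The smallest p that 5 against 5 libraries allow is 0.0079, and a p above the threshold does not show that the ratios were equal.

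A wider list of 28 biliary and epithelial genes moved in the same direction. Like the members, it was chosen with earlier results of these data known, so it is not an independent check. Of the 25 that passed the filter 17 rose, 0 fell and 8 did not pass, with a median log2 fold change of 0.88 (68% called higher, beside 10.6% of all genes; 14 called without controls 2 and 4). All 25 estimates were above 0, from 0.25 to 1.34. The other 3 had too few counts to be tested.

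Cdh1, which encodes E-cadherin, rose from 14.8 ± 1.7 to 31.2 ± 5.37 CPM (n = 5 per group, ± SD; log2 fold change 1.08 ± 0.12 SE, edgeR adjusted p = 7.2e-05). Its 5 control values ran from 12.55 to 16.7 CPM and its 5 values in the libraries labelled Alk1-HEC-KO from 22.2 to 36.3 CPM. Pkhd1, the fibrocystin gene of the cholangiocyte cilium, rose 2.38-fold (4.06 ± 0.59 to 9.68 ± 2.04 CPM, edgeR adjusted p = 1.2e-04). St14, the membrane protease matriptase, rose 1.94-fold (edgeR adjusted p = 9.9e-04). In each of these 3 genes the groups did not overlap, as in 10 of the 25 tested. Every library labelled Alk1-HEC-KO lay above every control in 8.4% of all tested genes.

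**Figure D3:**
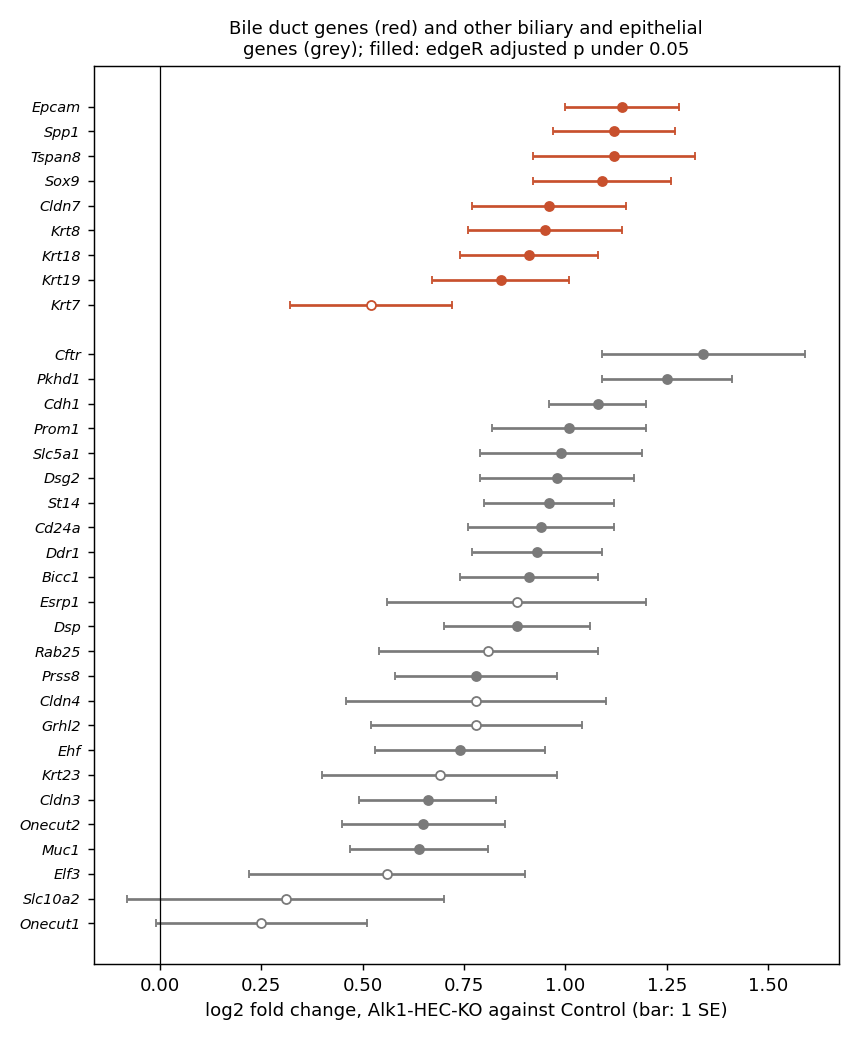
Log2 fold change (horizontal axis, bars of 1 SE) of the 9 bile duct genes in red and of 24 other biliary and epithelial genes in grey, with filled points for an edgeR adjusted p under 0.05. All points lie right of 0; Krt7 is the open red point at 0.52, and 16 of the 24 grey points are filled.

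Genes of duct specification that other liver cells also express formed a list of their own. Of its 12 members, among them Notch pathway genes, forkhead factors and YAP and TAZ, 2 rose, 0 fell and 10 did not pass, with a median of 0.26 on the log2 scale. The share called higher was 16.7%, beside 10.6% of all tested genes, and 1 to 3 were called higher on leaving out a library. Sox4, a partner of Sox9 in duct development, rose from 52.9 ± 9.53 to 116.7 ± 23.7 CPM (n = 5 per group, ± SD; log2 fold change 1.14 ± 0.16 SE, edgeR adjusted p = 5.8e-04). Foxa2 rose by 0.71 ± 0.22 on the log2 scale from 1.03 CPM (edgeR adjusted p = 0.038), which was lost under 11 alternatives, among them the removal of control 2, 3, 4 or 5 or of library 1, 3 or 5 labelled Alk1-HEC-KO.

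Receptors through which osteopontin acts are common on endothelium and other cells. Of 9 receptor genes, which are integrin chains and Cd44, 1 rose, 1 fell and 7 did not pass, with a median of 0.13 on the log2 scale. The share called higher, 11.1%, was near the 10.6% of all tested genes. Itga9, the alpha 9 integrin chain, rose from 598.5 ± 49.6 to 793.5 ± 61.8 CPM (n = 5 per group, ± SD; edgeR adjusted p = 0.0016). Itga8 fell from 210.3 ± 38.1 to 103.1 ± 9.98 CPM (log2 fold change -1.03 ± 0.12 SE, edgeR adjusted p = 1.2e-04).

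Genes named like the members were counted by symbol, as Krt, Cldn or Tspan followed by a number alone, which leaves out relatives with other names such as Krt6a. Of 50 such keratin genes 25 had 0 counts in every library and 10 were tested. Krt8, Krt18 and Krt19 were the 3 that rose, 0 fell, and Krt23 had a log2 fold change of 0.69 ± 0.29 SE (edgeR adjusted p = 0.12). Krt5 and Krt14, the pair of stratified epithelium, were at 0.59 and 0.533 CPM in controls and 0.469 and 0.502 CPM in the libraries labelled Alk1-HEC-KO (edgeR adjusted p = 0.75 and 0.94). Of 23 claudin genes 10 were tested and 5 rose, with 0 lower: Cldn5, the endothelial claudin, by 0.43 ± 0.07 on the log2 scale from 581.6 CPM, and the epithelial claudins Cldn8 by 1.03 ± 0.2, Cldn7 by 0.96 ± 0.19, Cldn3 by 0.66 ± 0.17 and Cldn6 by 0.88 ± 0.28. Of 20 tetraspanin genes 17 were tested, 5 rose and 4 fell. Called higher were 30% of the tested keratins, 50% of the claudins and 29.4% of the tetraspanins, beside 10.6% of all tested genes. These shares count the members themselves: all 3 of the called keratins, Cldn7 and Tspan8. Over all tested genes 9.08% were called lower. Tspan8 had the largest change of the 17, while Tspan13 and Tspan15 rose by 0.67 ± 0.06 and 0.53 ± 0.07, and Tspan7 fell by 0.4 ± 0.08 on the log2 scale.

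Genes whose pattern over the 10 libraries was most like a member were found by the mean absolute difference of centred log2 CPM, among 12589 protein-coding genes whose mean reached 1 CPM. Closest to Epcam were Glis3 (0.079), a factor linked to cystic disease, Pkhd1 (0.096) and Spp1 (0.103). Closest to Spp1 were Ocln (0.076), which encodes the tight junction protein occludin, Cdh1 (0.091) and Pkhd1 (0.101). Closest to Sox9 were Cdh1 (0.086), Dsp (0.107), the desmoplakin gene, and Ocln (0.119).

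Krt8 and Krt18 were each other's closest gene (0.085). Next named for Krt8 was Ngef (0.127) and for Krt18 Sh2d4a (0.104). Sh2d4a (0.087), Smpd3 (0.102) and Prom1 (0.108), a marker of ductal progenitors, were nearest to Krt19. Cldn7 had Lurap1l (0.107), Ccdc102a (0.123) and Ap1m2 (0.13), the epithelial clathrin adaptor chain, and Tspan8 had Hist1h2be (0.122), Atp13a3 (0.153) and Igsf9 (0.159). Krt7 was matched less closely, by Sdc1 (0.148), Npr3 (0.155) and Ppl (0.167). Of the 19 genes so found that are not members, 4 stood in the wider biliary list. The measure includes the difference between the groups, so these genes share the direction of the members by choice.

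Markers of other cells that could carry these transcripts are given beside the result. The summed level of the 9 bile duct genes was 212, 293, 269, 229.5 and 308 CPM in the control libraries, numbers 1 to 5, and 513, 593, 703, 416 and 547.5 CPM in those labelled Alk1-HEC-KO. Hepatocytes, which share Krt8 and Krt18, had 15 of 15 markers tested, of which 0 rose and 3 fell. Among all tested genes 10.6% were called higher and 9.08% lower. Their summed level was 982, 2138, 1035, 2179 and 624 CPM in controls and 1108, 1337, 718, 799.5 and 628 CPM in the libraries labelled Alk1-HEC-KO. The 3 that fell were Cyp2e1 (-3.3 ± 0.65 on the log2 scale, SE), Cyp3a11 (-3.1 ± 0.61) and Asgr1 (-1.63 ± 0.51). The call of Asgr1 ended under 14 alternatives, among them the removal of control 1, 2, 3 or 4 or of library 1, 3, 4 or 5 labelled Alk1-HEC-KO. The other 12 did not pass, among them Alb (-0.08 ± 0.33, edgeR adjusted p = 0.91). Tat (0.62 ± 0.34), Ass1 (0.48 ± 0.28) and Hnf4a (0.4 ± 0.46) were the 3 with estimates above 0. All 3 were highest in library 1 labelled Alk1-HEC-KO, as were Krt8 and Krt18. The part of hepatocytes in the Krt8 and Krt18 result was not tested.

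Mesothelial cells of the liver capsule also make keratins 7, 8, 18 and 19. Of 8 mesothelial markers 0 rose, 1 fell and 7 did not pass, where 9.08% of all tested genes were called lower and 10.6% higher. The one that fell was Gpm6a, from 62.4 ± 13.2 to 28.45 ± 3.55 CPM (n = 5 per group, ± SD; edgeR adjusted p = 1.8e-04). The summed level of the other 7 ran from 15.8 to 51.8 CPM in controls and from 26.7 to 71.4 CPM in the libraries labelled Alk1-HEC-KO, and the highest were control 2 and library 5. Gpm6a was instead highest in control 1, at 83.2 CPM, and in library 2 labelled Alk1-HEC-KO, at 33.8 CPM. Msln was at 6.34 ± 3.1 and 7.9 ± 4.13 CPM (n = 5 per group, ± SD; edgeR adjusted p = 0.64).

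Macrophages, a further source of osteopontin, had 12 of 12 markers tested and 0 called in either direction by edgeR, with 1, Gpnmb, at an unadjusted p under 0.05, and 0 called by DESeq2 or limma-voom. Their summed level ran from 777 to 2392 CPM in controls and from 661 to 1581 CPM in the libraries labelled Alk1-HEC-KO. The ranges of the groups overlapped, and the part of macrophages in the Spp1 result was not tested. Gpnmb was at 3.38 ± 2.46 and 1.38 ± 0.74 CPM (n = 5 per group, ± SD; edgeR adjusted p = 0.15), and C1qb was at 187.8 ± 100.6 and 162 ± 55.3 CPM (edgeR adjusted p = 0.76).

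Of the cells around ducts, 12 portal fibroblast and mural markers had 3 that rose, 0 that fell and 9 that did not pass. That was 25% called higher, beside 10.6% of all tested genes. Pi16, Dpt and Mfap4, matrix and fibroblast genes, rose by 1.12 ± 0.27, 0.83 ± 0.22 and 1.04 ± 0.3 on the log2 scale, and 0 of the 3 were called without controls 2 and 4. The call of Dpt also ended without library 4 labelled Alk1-HEC-KO, and that of Mfap4 without control 2, 4 or 5 or library 2, 3, 4 or 5. Of 8 stellate cell markers 1 rose (Ngfr, by 1.24 ± 0.36), and this call ended without control 1, 2, 3 or 5 or library 1, 3 or 5 labelled Alk1-HEC-KO. The share called higher, 12.5%, was near the 10.6% of all tested genes. Of 8 neutrophil and monocyte markers 7 were tested and 0 were called, with 0 at an unadjusted p under 0.05 and 0 by DESeq2 or limma-voom (smallest edgeR adjusted p = 0.26, Ly6c2). Of 8 lymphocyte markers 0 were called by edgeR, DESeq2 or limma-voom, and 2 had an unadjusted p under 0.05, Cd3e and Cd3g (edgeR adjusted p = 0.11 and 0.13).

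The endothelial markers themselves moved both ways, with 4 of 12 higher, 5 lower and 3 that did not pass. The share called higher was 33.3%, where 10.6% of all tested genes were called higher and 9.08% lower. Their summed level ran from 21780 to 25240 CPM in controls and from 18480 to 20280 CPM in the other group. Emcn and Mcam rose by 0.9 ± 0.07 and 0.71 ± 0.09 on the log2 scale, and Eng and Ptprb fell by 0.75 ± 0.07 and by 0.47 ± 0.07. Mcam, whose product the beads capture, was at 364, 315, 386, 276 and 310 CPM in the control libraries, numbers 1 to 5, and 580, 548, 482.5, 540 and 553 CPM in those labelled Alk1-HEC-KO. The part of the capture, of the fibroblast genes that rose and of the mitochondrial share in the bile duct result was not tested.

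**Figure D4:**
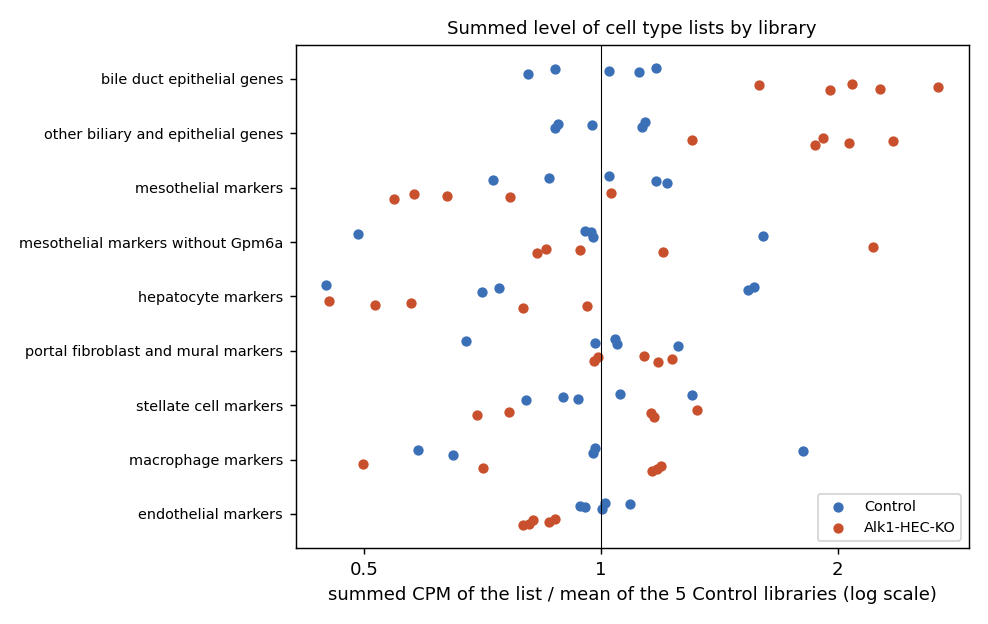
Summed CPM of each cell type list in each library divided by the mean of the 5 Control libraries (log axis), with Control in blue and Alk1-HEC-KO in red. Both biliary lists have all red points right of all blue points, and the endothelial list has all red points left of all blue points. The mesothelial, hepatocyte, portal fibroblast, stellate and macrophage lists overlap between the groups.

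Some of the keratin genes lie on the chromosome of the targeted gene. Acvrl1 lies at chr15:101128522-101145336 (GRCm38), and Krt7, Krt8 and Krt18 lie 265.7, 851.4 and 882.8 kb from it. Of 99 genes within 1 Mb of Acvrl1, 32 were tested, of which 4 rose and 2 fell. Without these 3 keratin genes 29 were tested, 2 rose, 2 fell, 13.8% were called, and the median log2 fold change was 0, against 19.7% called among all genes. Slc4a8, a bicarbonate transporter, fell by 1.33 ± 0.2 on the log2 scale, and Tns2, the tensin 2 gene, rose by 0.36 ± 0.06. The members on other chromosomes (Epcam, Spp1, Sox9, Cldn7, Krt19 and Tspan8) rose by amounts of 0.84 to 1.14, and Krt8 and Krt18 by 0.95 and 0.91. Krt7, the nearest of the 3 keratin genes, had 0.52 and did not pass (edgeR adjusted p = 0.084). The part of position in these changes was not tested.

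**Figure D5:**
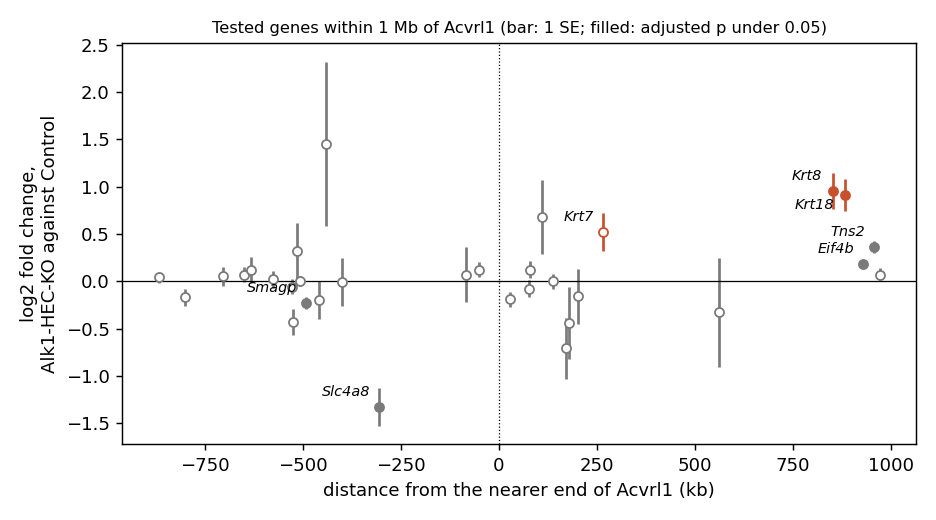
Log2 fold change (bars of 1 SE) of the 32 tested genes within 1 Mb of Acvrl1 against their distance in kb from its nearer end, with the bile duct keratins in red and filled points for an edgeR adjusted p under 0.05. Krt8 and Krt18 stand at 0.95 and 0.91, and Krt7 is the open red point at 0.52. The median of the other neighbours is 0.

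Read sharing with other genes was small for the members. Of their 90 deposited values 12 differed from a whole number by more than 0.01. The annotation places other genes across Spp1, Krt7, Krt8 and Tspan8, and these overlapping genes had at most 5 counts in any library. The pseudogene Krt8-ps had at most 1.3 counts.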

How the data were processed

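RNA was sequenced in 5 Alk1-HEC-KO and 5 Control libraries, grouped and numbered by their titles. Per the submitters' processing notes, the tools were Trim Galore 0.6.4 and kallisto 0.4.6, with the build GRCm38.p6. The deposited files hold expected counts (estimated counts per gene) and TPM per gene. The step from transcripts to genes is not given in the sources used here. Of 55385 identifiers, 55144 matched GENCODE M21 (GRCm38).

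Rounded counts entered edgeR 4.0.16 under R 4.3.3 (filterByExpr with a minimum count of 10, TMM factors 0.943 to 1.035, robust quasi-likelihood test on genotype, Benjamini-Hochberg over 15043 genes, threshold 0.05). CPM used TMM-scaled library sizes, and log2 CPM a prior count of 2. Ratios were tested by exact permutation over 252 assignments. Within each group, all pairs of libraries differed by more than sampling noise (chi-square per degree of freedom 10.38 to 29.62). Depth limits counting precision for genes with few counts.

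The members and lists were chosen with earlier results of these data known. Named genes are the members, Acvrl1, up to 4 called genes of each of the 15 other lists (or the 2 with the smallest p) and the 3 genes most like each member. A few items of these lists are not reported here. Other named genes were chosen after their values were seen. Tested on simulated data for this comparison (14937 genes), the procedure called 77.6% of 2-fold changes, and 5.95% of calls were false. Alternatives were DESeq2 1.42.0, limma-voom (limma 3.58.1), other scalings and filters, limma on deposited TPM (log2, pseudocount 1 or 0.1), no robust estimation, the replicate number as a block, and each library left out. Leaving out both controls 2 and 4 was an alternative chosen after seeing the data.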

Additional observations from a re-analysis of the deposited data

Results flagged for a closer look

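Among 54 groups of 5 values (the members, Acvrl1, Mcam and the summed lists in each genotype), 3 held a library far from the other 4, and chance gives about 1 in 20. The summed level of the keratin genes was lowest in library 4 labelled Alk1-HEC-KO, at 69.2 CPM, where the other 4 libraries of that group stood at 98.3 to 109.8 CPM. The summed level of neutrophil and monocyte markers was highest in library 1 labelled Alk1-HEC-KO, at 546.7 CPM. The summed level of lymphocyte markers was highest in library 2 labelled Alk1-HEC-KO, at 94.3 CPM.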

How the results depend on the processing

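The 8 members called higher, Epcam, Spp1, Sox9, Cldn7, Krt19, Krt8, Krt18 and Tspan8, were each called higher under all 21 alternatives, with log2 fold changes from 0.74 to 1.32. Krt7 was called only with the replicate block (edgeR adjusted p = 0.032) and without control 2 (0.049). Deviations of same-numbered libraries from their group means correlated by -0.196 to 0.35, 2 of 5 under 0.1. Only number 2 correlated best with its own number. Whether the numbers mark pairs is not given in the sources used here, and these correlations cannot decide it. With the replicate block 9 members were called higher, and 1432 genes higher and 1135 lower over all genes. Genes called lower over all genes numbered 685 and 687 with limma on log2 TPM (pseudocounts 1 and 0.1) and 787 without controls 2 and 4, against 1366. Other counts moved by over 1.5 times in small lists. Called lower, hepatocyte markers numbered 6 with DESeq2. Called higher, portal fibroblast and mural markers numbered 0 with the block and 0 without controls 2 and 4, and stellate cell markers 0 with limma-voom, the block or without controls 2 and 4. Osteopontin receptors called higher numbered 2 with DESeq2 or library size alone and 3 with either TPM fit. Duct specification factors called higher numbered 1 with limma-voom, no filter, the block or without controls 2 and 4, and 4 with library size alone. Tetraspanins called higher numbered 3 without controls 2 and 4, and those called lower 2 with library size alone, the block or without controls 2 and 4 and 1 with either TPM fit. Neighbours of Acvrl1 called lower numbered 1 with either TPM fit or without controls 2 and 4. Leaving out 1 library at a time gave 2 to 6 hepatocyte markers lower, 1 to 3 portal markers higher, 0 to 1 stellate markers higher, 0 to 1 lymphocyte markers lower, 1 to 3 duct specification factors higher, 2 to 3 tetraspanins lower and 1 to 3 neighbours of Acvrl1 lower. The cause was not tested. Of 1112 values of 53 other named genes under the alternatives 1044 kept their direction and side of the threshold, 65 lost a call, 3 gained one, and 0 reversed. Depth limits the genes with few counts, such as Cldn7.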
